A study of Mus musculus with 57 samples.

Results

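Large-subunit ribosomal protein genes were followed in mouse pancreas through caerulein pancreatitis. Members were every target of the deposited count table whose name is Rpl followed by a number and at most 1 letter, together with Rplp0, Rplp1 and Rplp2. This gave 43 members of 9780 targets, and the 31 small-subunit targets chosen by the corresponding Rps names are used for comparison. The rule reads target names and no measured value. The tissue came from C57BL/6 mice treated at 8 to 9 weeks of age. Pancreatitis was induced with caerulein, a cholecystokinin analogue that overstimulates acinar cells, given intraperitoneally every hour for 8 hours on each of 2 days. Control tissue and tissue at 3, 12, 24, 48 and 72 hours and at 5, 7, 14 and 30 days were laid out as cores in 2 tissue arrays, sectioned at 5 µm from formalin-fixed blocks. The event that sets time zero, any injection given to control mice, and the animal behind each region are not stated in the labels, and some regions of a time come from the same piece of tissue. In all, 57 regions of 650 by 650 µm were read with the GeoMx Whole Transcriptome Atlas, in which a photocleaved barcode reports 1 hybridised probe: 7 control regions and 3, 6, 6, 5, 4, 6, 6, 7 and 7 regions at the 9 times in order.

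The large ribosomal subunit catalyses peptide bond formation and holds the tunnel through which the new chain leaves. Its proteins are made in matched amounts, and most of their mRNAs begin with a terminal oligopyrimidine tract, which lets growth signalling through mTOR and LARP1 control their translation. The promoters commonly start transcription within a pyrimidine stretch and often carry sites for ETS-family factors. The acinar cell, the main cell of the exocrine pancreas, is among the most active protein-secreting cells of the body.

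Promoter sequence was read for the members whose values are described most closely. RefSeq on GRCm38.p6 gave a window of 300 bases for 33 of the 43 members, from 250 bases before to 50 after the listed start, and the first listed start was used for 5 members with several. The stretches below are the 60 bases before and the 20 from the listed start. They belong to the 6 members called above the summed family at 12 and 24 hours, and to Rpl41, called below it. For most of the 6 that call was lost once Rpl41 was left out of the sum, as described below. Capitals mark CTTTC on the sense strand from 20 bases before to 30 after the start, and CCGGAAG (an ETS-type core) on either strand.
Rpl5: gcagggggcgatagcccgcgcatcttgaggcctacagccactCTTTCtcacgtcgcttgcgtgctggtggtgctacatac
Rplp2: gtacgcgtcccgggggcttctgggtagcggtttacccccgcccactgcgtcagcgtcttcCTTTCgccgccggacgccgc
Rpl14: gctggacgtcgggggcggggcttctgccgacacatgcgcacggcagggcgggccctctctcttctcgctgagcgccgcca
Rpl22: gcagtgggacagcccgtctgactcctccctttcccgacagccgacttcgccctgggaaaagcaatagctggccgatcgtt
Rpl13a: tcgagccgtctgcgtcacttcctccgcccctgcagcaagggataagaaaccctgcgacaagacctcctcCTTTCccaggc
Rpl4: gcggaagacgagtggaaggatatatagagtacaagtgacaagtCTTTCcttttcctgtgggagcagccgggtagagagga
Rpl41: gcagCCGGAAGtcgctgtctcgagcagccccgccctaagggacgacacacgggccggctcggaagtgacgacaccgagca

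These lie at chr5:107900468-107900547 on the plus strand (Rpl5), chr7:141447591-141447670 plus (Rplp2), chr9:120571457-120571536 plus (Rpl14), chr4:152325666-152325745 plus (Rpl22), chr7:45128726-45128805 minus (Rpl13a), chr9:64173327-64173406 plus (Rpl4) and chr10:128549149-128549228 minus (Rpl41). Each covers promoter sequence and the first bases of the transcript. CTTTC lay near the start in 14 of the 33 member windows, or 42.4%, against 6.46% of 27025 windows of all genes. A run of at least 8 pyrimidines lay there in 17 members, or 51.5%, against 18.8% of all windows; the CTTTC motif can lie within such a run. CCGGAAG occurred in 12 members, or 36.4%, against 9.12% of all windows, and in 10 of 23 small-subunit windows, or 43.5%. In the small-subunit windows CTTTC was found in 5, or 21.7%, and the pyrimidine run in 12, or 52.2%. Of the members with a window, CTTTC was found in 13 of 25 that rose at 12 hours and in 1 of 8 that did not pass the test there. The pyrimidine run was found in 14 of the 25 and 3 of the 8, and CCGGAAG in 9 of the 25 and 3 of the 8, or 36% and 37.5%. Of the members printed above, Rpl22 held none of the 3 features and Rpl14 held the run alone. These matches describe the listed windows and were not tested as sites.

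Each member was read by 1 probe. All 43 probes match their own gene, and 17 also match at least 1 other place in the genome. Of these 19 extra matches 14 lie in an annotated pseudogene, so counts of Rplp2, Rpl14, Rpl17 and others may include reads from copies. Probes bind with different efficiency, so levels are compared between samples and not between members. Total counts ran from 1036609 to 5035487 per region (median 2036021), and the negative probes, which have no target in mouse RNA, read 42.1 to 186 counts. A member's level is given here as a normalised count (CPM) after TMM scaling, which sets each region's library size by its typical target.

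In control tissue 31.9 ± 3.67 of the 43 members (SD, n = 7 regions) exceeded 2 times the negative-probe value, and this number was 42.3 ± 1.21 at 12 hours (n = 6) and 42.3 ± 0.816 at 24 hours (n = 6). The members that were under 2 times the negative value in most control regions were Rpl8 at 1.19 times, Rpl24 at 1.29, Rplp2 at 1.50, Rpl7 at 1.60, Rpl22 at 1.64, Rpl27 at 1.65, Rpl14 at 1.73, Rpl36a at 1.75 and Rpl28 at 1.84. For these the control level is mostly background, so their differences from control understate any change in RNA. Rpl41 stood at 45.2 times the negative value in control, Rpl17 at 11.1 and Rpl23a at 8.07. All 43 members passed the filter for testing (more than 2 times the negative value in at least 3 of 57 regions), some only through their level after injury.

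As a group the members took up a larger share of the counts in early pancreatitis. Their summed share of all counts was 0.527% to 0.798% in the 7 control regions (median 0.745%), and 1.17% to 1.85% in the 6 regions at 12 hours (median 1.54%). At 24 hours it was 1.14% to 1.89% (median 1.27%, n = 6). Every region at 12 and 24 hours lay above every control region. The share was 1.40%, 0.984% and 0.908% in the 3 regions at 3 hours, and 1.26%, 1.03%, 1.02%, 1.09% and 1.09% at 48 hours. At 72 hours 1 region stood at 1.51% and the other 3 at 1.03%, 0.992% and 0.936%. The region at 1.51% is the only 72-hour region on array 1, and the highest 3-hour region is likewise the only one of that time on array 1. At 5 days the share was 0.688% to 0.994% (median 0.846%, n = 6), which overlaps control. At 7 days it was 0.878% to 1.13% (median 1.00%, n = 6), with every region above every control region. By 14 days the share was 0.564% to 0.955% (median 0.668%) and by 30 days 0.677% to 0.743% (median 0.719%), within or close to the control range.

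**Figure D1:**
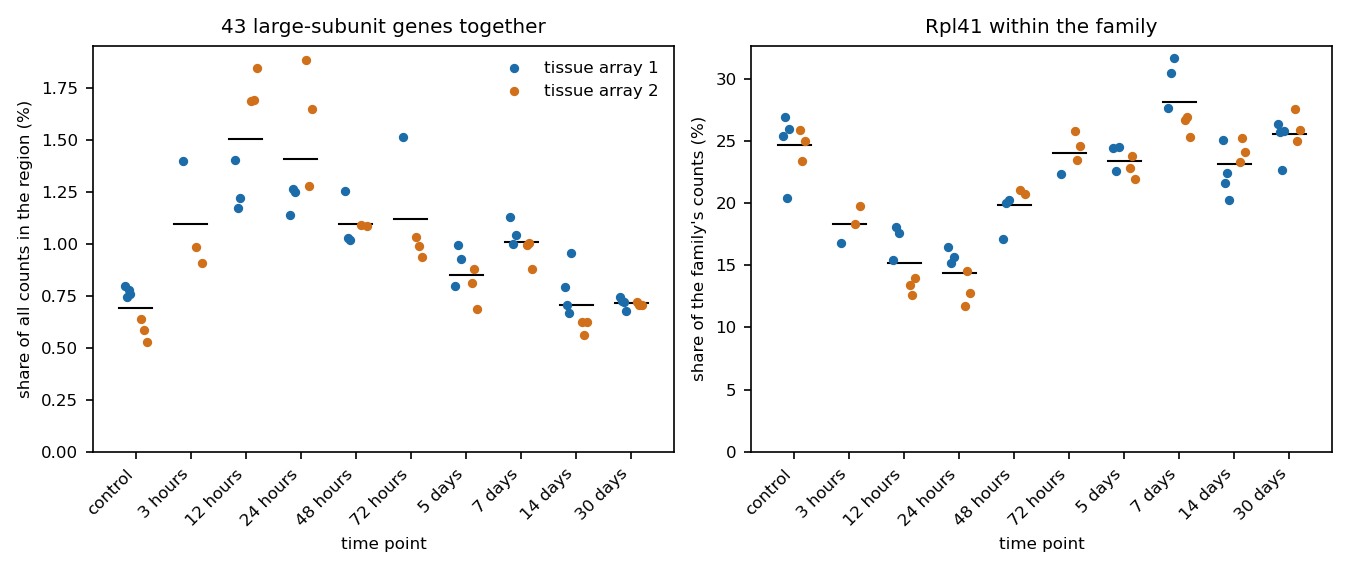
Left, the share of all counts of a region (percent) that fell on the 43 large-subunit genes, by time point. Right, the share of those counts that was Rpl41 (percent). Each point is 1 region, coloured by tissue array, and the line is the mean of the time point; the family share is highest at 12 and 24 hours, where the Rpl41 share is lowest (15.2% and 14.4% against 24.7% in control).

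That share has all counts as its denominator, and digestive enzymes, the main product of acinar cells, made up 19.6 ± 2.25% of counts in control, 7.94 ± 1.09% at 12 hours and 4.48 ± 1.99% at 24 hours. With the enzymes and Lrr1, a single target that took 18.2% of control counts, left out of the total, the family share was 1.11 ± 0.121% in control, 1.86 ± 0.274% at 12 hours and 1.71 ± 0.257% at 24 hours. The difference between these times and control was thus smaller but of the same direction. On this measure control regions ran from 0.905% to 1.24%, and the lowest regions at 12 and 24 hours, 1.53% and 1.44%, stayed above them. The lowest regions at 3, 48 and 72 hours and at 7 days, 1.22%, 1.21%, 1.17% and 1.19%, lay within the control range. The separation of 7 days from control therefore depended on the denominator. In bulk regions, fewer cells of a type and less RNA per cell cannot be told apart.

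For tests, regions of a time point on the same array were summed, giving 20 sums, 2 per group, and each target was tested with edgeR's quasi-likelihood test with array as a covariate and Benjamini-Hochberg adjustment over the 2688 targets that passed the filter. An adjusted p under 0.05 is called a rise or a fall. With 2 sums a group and no animal identity, the spread behind each p-value is that between these sums and may be technical. At 12 hours 31 of the 43 members rose and 0 fell, where 21.8% of all tested targets rose and 21% fell. At 24 hours 33 members rose and 0 fell, where again 21.8% of tested targets rose and 20.5% fell. The median log2 difference of the members was 0.84 at 12 hours and 0.71 at 24 hours, against -0.01 and 0.00 over all tested targets. In 31 of the 43 members at 12 hours, and in 31 at 24 hours, every region lay above every control region, as did 14.9% and 14.1% of all tested targets. Counts at both times rested on array 2. Leaving its 12-hour sum out gave 4 members at 12 hours, and leaving its control sum out gave 8. At 24 hours the count fell to 3 when that array's 24-hour sum was dropped, to 5 when its control sum was dropped, and to 21 when the array 1 control sum was dropped.

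**Figure D2:**
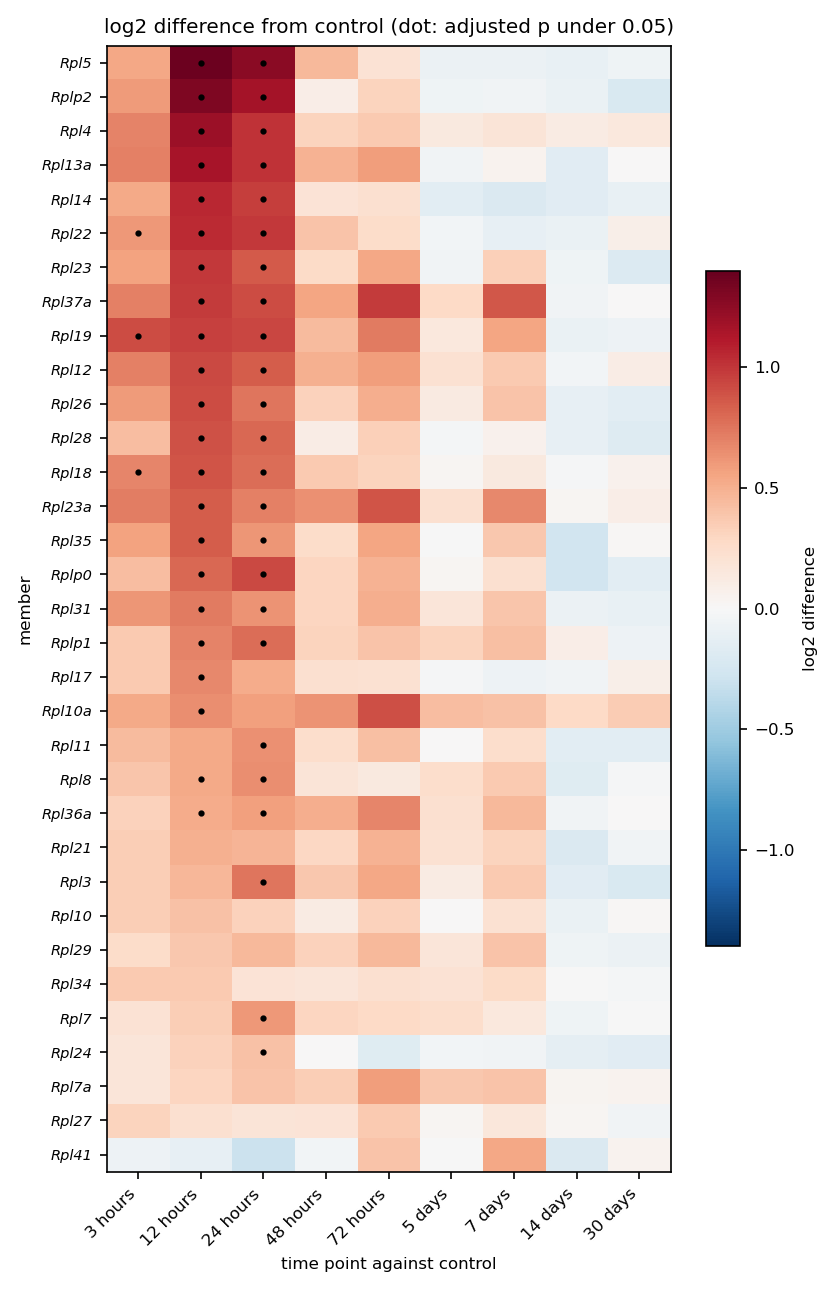
Log2 difference from control for the 33 members named in the text (rows, ordered by the 12-hour value) at the 9 times (columns). Red is higher and blue lower than control, and a dot marks an adjusted p under 0.05; dots fill most of the 12-hour and 24-hour columns, stand at 3 members at 3 hours and are absent from 48 hours on.

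The rise differed in size between the arrays. At 12 hours the members' median log2 difference was 0.42 on array 1 and 1.02 on array 2, and at 24 hours 0.44 and 0.96. At 3 hours the order was the other way round, 0.68 on array 1 and 0.31 on array 2, and so at 72 hours, 0.59 and 0.26. Control regions themselves differed, at 0.767% of counts on array 1 and 0.564% on array 2 for the summed family. The direction was shared: 41 of 43 members at 12 hours and 43 of 43 at 24 hours had the same sign on both arrays. Whether array, core or animal lies behind the difference cannot be told apart.

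**Figure D3:**
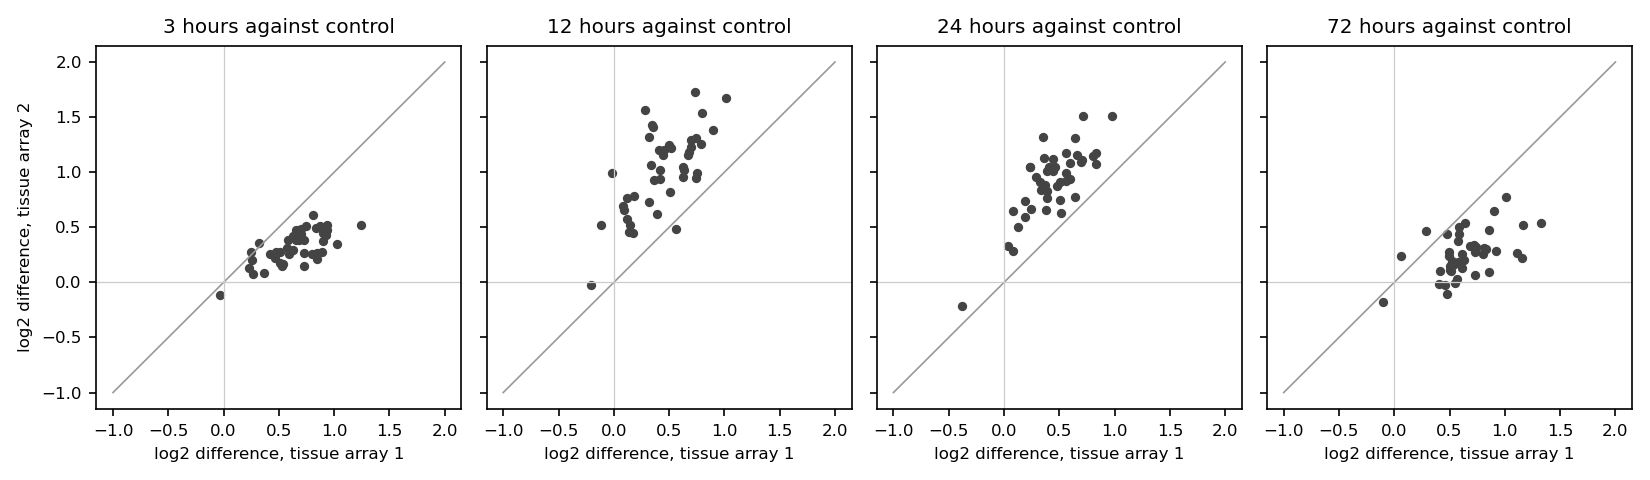
Log2 difference from control of the 43 members on tissue array 1 (horizontal axis) and tissue array 2 (vertical axis) at 4 times; each point is 1 member and the grey line marks equal values. Nearly all points lie above the line at 12 and 24 hours, with Rpl8 an exception at 12 hours (0.57 on array 1, 0.49 on array 2), and they lie mostly below it at 3 and 72 hours.

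The acidic stalk proteins and their base, which recruit elongation factors to the ribosome, rose in full at both times. Rplp2 read 99.6 to 135 in control (median 110, n = 7), 177 to 392 at 12 hours (median 296, n = 6) and 161 to 424 at 24 hours (median 209, n = 6). No region of either time overlapped the control range. Its log2 difference was 1.31 ± 0.26 (SE) at 12 hours (edgeR adjusted p = 0.0015) and 1.16 ± 0.26 at 24 hours (adjusted p = 0.0031). Its partner Rplp1 rose by 0.70 ± 0.19 and 0.78 ± 0.19 on the log2 scale, Rplp0, the scaffold of the stalk, by 0.80 ± 0.23 and 0.93 ± 0.23, and Rpl12, at the base, by 0.93 ± 0.24 and 0.85 ± 0.24. All 4 of these therefore passed the test at 12 and at 24 hours. Of all 43 members 31 and 33 rose at these times, as did 21.8% of all tested targets at each. A full count in this or a later role list is therefore not read as particular to that site.

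Rpl5 and Rpl11 bind 5S rRNA, and in mouse and human the free complex takes part in the nucleolar stress response. Rpl5 read 186 to 271 in control (median 224), 421 to 693 at 12 hours (median 587) and 374 to 690 at 24 hours (median 481). These ranges are apart. The log2 difference was 1.37 ± 0.26 at 12 hours (edgeR adjusted p = 0.00099) and 1.26 ± 0.26 at 24 hours (adjusted p = 0.0015), and it was positive on both arrays. Rpl11 differed by 0.53 ± 0.23 at 12 hours (adjusted p = 0.066) and rose by 0.64 ± 0.23 at 24 hours (adjusted p = 0.031).

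Of the 3 members around the catalytic centre and the transfer RNA sites, 1 rose at 12 hours and 2 at 24 hours. Beside these stand 31 and 33 of all 43 members, and 21.8% of all tested targets at each time. Rpl8, which lies close to the peptidyl transferase centre, rose by 0.53 ± 0.12 at 12 hours (edgeR adjusted p = 0.0027) and 0.65 ± 0.12 at 24 hours (adjusted p = 0.00053), from a control level near background. Rpl3, which also reaches toward the centre, differed by 0.46 ± 0.23 (adjusted p = 0.11) and rose by 0.75 ± 0.23 (adjusted p = 0.016). Rpl10, a late-joining protein that completes the subunit in the cytoplasm, differed by 0.42 ± 0.23 and 0.32 ± 0.23 and passed the test at neither time (adjusted p = 0.16 and 0.27). With background subtracted, the 24-hour value of Rpl10 was -0.076.

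Along the exit tunnel, Rpl4, whose loop narrows the channel, read 128 to 165 in control (median 160), 237 to 455 at 12 hours (median 350) and 189 to 420 at 24 hours (median 275). All 12 regions of those times lay above the control range. Its log2 difference was 1.20 ± 0.25 at 12 hours (edgeR adjusted p = 0.0018) and 1.01 ± 0.25 at 24 hours (adjusted p = 0.0052). Rpl17, on the tunnel wall, rose by 0.67 ± 0.25 at 12 hours (adjusted p = 0.036) and differed by 0.52 ± 0.25 at 24 hours (adjusted p = 0.097). The 5 proteins at the rim of the exit, Rpl19, Rpl23a, Rpl26, Rpl31 and Rpl35, where the signal recognition particle and chaperones dock, all rose at both times, by 0.73 to 0.96 at 12 hours and 0.62 to 0.93 at 24 hours. Most of the family did so too, 31 and 33 of 43 members, beside 21.8% of all tested targets at each time.

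At the subunit interface the members split. Rpl23 rose by 0.99 ± 0.29 at 12 hours (edgeR adjusted p = 0.014) and 0.86 ± 0.29 at 24 hours (adjusted p = 0.027). Rpl24, which forms a bridge to the small subunit, differed by 0.32 ± 0.13 (adjusted p = 0.057) and rose by 0.41 ± 0.13 (adjusted p = 0.021). Rpl41, a very short and basic peptide that sits between the subunits, did not pass the test at either time. It read 2843 to 4274 in control (median 3734, n = 7), 2771 to 3447 at 12 hours (median 3204) and 2555 to 2917 at 24 hours (median 2744), and the ranges overlap. Its log2 difference was -0.12 ± 0.28 (adjusted p = 0.75) and -0.30 ± 0.28 (adjusted p = 0.40), and its sign turned under total-count and negative-probe scaling at both times, and under 75th-percentile scaling and without the filter at 12 hours.

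Among members outside these roles, Rpl13a, a surface protein that in human myeloid cells also acts off the ribosome to repress translation, read 359 to 488 in control (median 414), 740 to 1074 at 12 hours (median 925) and 670 to 993 at 24 hours (median 785). Its log2 difference was 1.15 ± 0.26 (edgeR adjusted p = 0.0033) and 1.01 ± 0.26 (adjusted p = 0.0071). Rpl14 read 112 to 156 in control (median 130), 201 to 320 at 12 hours (median 280) and 195 to 312 at 24 hours (median 249). Rpl22, an RNA-binding member whose loss in mice impairs T cell development, read 110 to 139 in control (median 126), 208 to 325 at 12 hours (median 258) and 171 to 297 at 24 hours (median 250). For each of these genes the 2 times lay wholly above control. Rpl14 rose by 1.05 ± 0.19 and 0.96 ± 0.19, and Rpl22 by 1.05 ± 0.17 and 0.99 ± 0.17. Members that passed the test at neither time, beside Rpl10 and Rpl41, were Rpl7a, Rpl21, Rpl27, Rpl29 and Rpl34, whose log2 differences lay between 0.18 and 0.49.

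**Figure D4:**
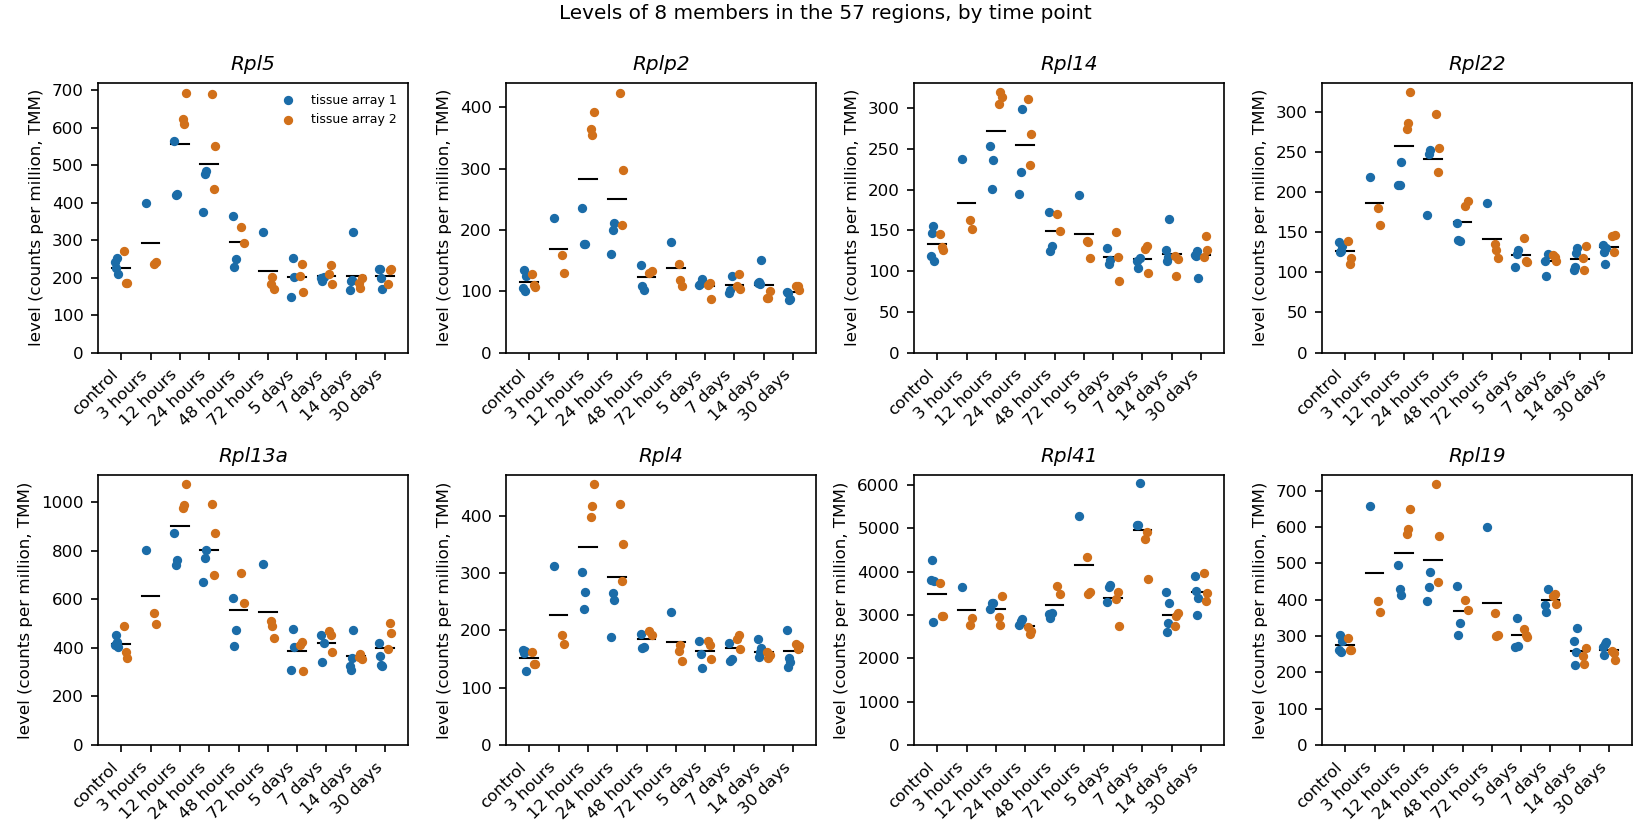
Level (CPM after TMM scaling) of 8 members in the 57 regions by time point; each point is 1 region, coloured by array, the line is the mean of the time, and each axis starts at 0. Rpl5 to Rpl4 and Rpl19 peak at 12 or 24 hours, whereas the highest mean of Rpl41 is at 7 days.

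At 3 hours 3 of the 43 members rose and 0 fell, where 7.66% of tested targets rose and 3.76% fell. The called count is thus near the share of all targets that rose. Rpl22 read 219, 180 and 159 in the 3 regions, Rpl19 read 658, 396 and 367, and Rpl18 read 497, 346 and 341. In each case all 3 lay above the highest control region, and the single array 1 region was the highest. The log2 differences were 0.61 ± 0.19 for Rpl22, 0.91 ± 0.28 for Rpl19 and 0.69 ± 0.21 for Rpl18 (edgeR adjusted p = 0.042, 0.044 and 0.044). The members' median at 3 hours was 0.53, and 23 members had an unadjusted p under 0.05, as did 25.8% of all tested targets. In 16 members all 3 regions lay above every control region, as did 12.3% of tested targets. The count of called members was 0 when the array 1 sum of 3 hours or either control sum was dropped, and 16 when the array 2 sum of 3 hours was dropped. Between 12 and 3 hours 0 members were called by edgeR, where 0.335% of targets were higher and 0.446% lower. In that comparison 4 members and 14.5% of targets had an unadjusted p under 0.05, and DESeq2 called 0 members and 2.08% of targets.

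From 48 hours on no member was called against control by edgeR at 48 hours, 72 hours, 5, 7, 14 or 30 days, with 4, 18, 1, 6, 0 and 0 members at an unadjusted p under 0.05. Of all tested targets 14.2%, 12.6%, 7.51%, 7.44%, 5.39% and 3.65% had such a p. DESeq2 called 0, 6, 0, 1, 0 and 0 members at these times, and 4.32%, 5.42%, 1.73%, 3.78%, 0.446% and 0.149% of the targets to which it gave an adjusted p. Of all tested targets 0.67%, 0.67%, 0.26%, 0.0372%, 0% and 0.0372% were called higher at these times, and 1%, 0.409%, 0.112%, 0%, 0% and 0% lower. Dropping the array 2 sum of 72 hours gave 5 members at that time. Median log2 differences of the members were 0.30, 0.42, 0.05, 0.28, -0.09 and -0.04. Every region lay above every control region for 10 members at 48 hours, 8 at 72 hours and 1 at 5 days, where 3.01%, 2.98% and 1.23% of tested targets did. For 14 and 30 days this was 0 members, and 0.595% and 0.484% of targets. Most members had their highest mean level early, 29 at 12 hours and 10 at 24 hours. Rpl10a, Rpl27 and Rpl7a had theirs at 72 hours and Rpl41 at 7 days.

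Rpl37a, Rpl23a and Rpl10a are given here because of their later values, and were chosen after those were seen. Rpl37a, a zinc-binding member, had the largest 72-hour difference, 0.98 ± 0.28 (edgeR adjusted p = 0.13), from levels of 835, 484, 382 and 384 against 263 to 379 in control (median 308). The first of these is the array 1 region. Rpl23a read 1480, 924, 745 and 757 at that time (0.88 ± 0.24, adjusted p = 0.12), and Rpl10a 550, 428, 399 and 372 (0.90 ± 0.24, adjusted p = 0.099). At 7 days Rpl37a read 448 to 625 (median 577, n = 6), all above control, with a log2 difference of 0.87 ± 0.27 (adjusted p = 0.50). In the same regions Rpl41 read 3834 to 6052 (median 4995), 5 of 6 above the highest control region (0.54 ± 0.28, adjusted p = 0.72). Every 7-day region lay above every control region for 11 members, against 1.53% of tested targets.

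Between 24 and 72 hours 6 of the 43 members fell, where 11.4% of tested targets fell and 7.96% rose. That count is near the share of all targets that fell, and is not read as particular to the family. Rpl5 fell by 1.06 ± 0.27 on the log2 scale, Rplp2 by 0.85 ± 0.28, Rpl14 by 0.74 ± 0.20, Rpl22 by 0.73 ± 0.19, Rpl24 by 0.58 ± 0.15 and Rpl8 by 0.52 ± 0.13 (edgeR adjusted p between 0.011 and 0.044). Rpl5, for example, read 374 to 690 at 24 hours and 322, 183, 201 and 170 at 72 hours. All 6 had lower values on both arrays, with the larger difference on array 2. The family as a whole did not share this: the median of the 43 members was 0.21 on array 1 and -0.71 on array 2, and 13 members had the same sign on both. Of the 43 members 11 had an unadjusted p under 0.05, as did 36.7% of all tested targets. The count of called members was 0 when either array 2 sum was dropped, 10 when the array 1 sum of 24 hours was, and 11 when that of 72 hours was. Between 72 hours and 30 days 0 members were called by edgeR, where 0.521% of targets were called lower and 0.521% higher. There 24 members and 12% of targets had an unadjusted p under 0.05, and DESeq2 called 7 members lower and 6.29% of targets in either direction. When the array 2 sum of 72 hours was dropped, 7 members were called lower there.

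Whether the members kept their proportions was asked by using the summed counts of the 43 as the library size, so that a value of 0 means moving with the family. Over all time points 6 members departed from it in the joint test, Rpl5 (edgeR adjusted p = 0.00045), Rpl14 (0.0041), Rplp2 (0.0055), Rpl22 (0.0065), Rpl13a (0.021) and Rpl4 (0.032), where 50% of all targets were called. Because the family itself rose at 12 and 24 hours, many other targets lie lower on this scale. Shares of all targets called on it are therefore no neutral background for the members. The adjustment ran over the same targets, so the adjusted p-values depend on the choice of reference. In the joint test on the TMM scale 34 members were called, against 42.1% of all targets. At 12 hours the same 6 were above the family, by 0.75 ± 0.18 for Rpl5, 0.66 ± 0.21 for Rplp2, 0.57 ± 0.18 for Rpl4, 0.54 ± 0.19 for Rpl13a, 0.43 ± 0.17 for Rpl22 and 0.42 ± 0.17 for Rpl14, where 3.16% of targets were higher. Rpl41 was below it, by -0.71 ± 0.30 (adjusted p = 0.044), where 63.4% of targets were lower. At 3 hours 0 members departed from the family in either direction, where 1.93% of targets were higher and 2.72% lower. At 24 hours the same 6 were above the family by 0.44 to 0.73, where 3.68% of targets were higher, and Rpl41 stood at -0.80 ± 0.30 (adjusted p = 0.036), where 44.8% of targets were lower. From 48 hours on 0 members were called relative to the family against control. When the array 2 sum of the time or of control was dropped, none of these 7 genes was called relative to the family at 12 or 24 hours.

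**Figure D5:**
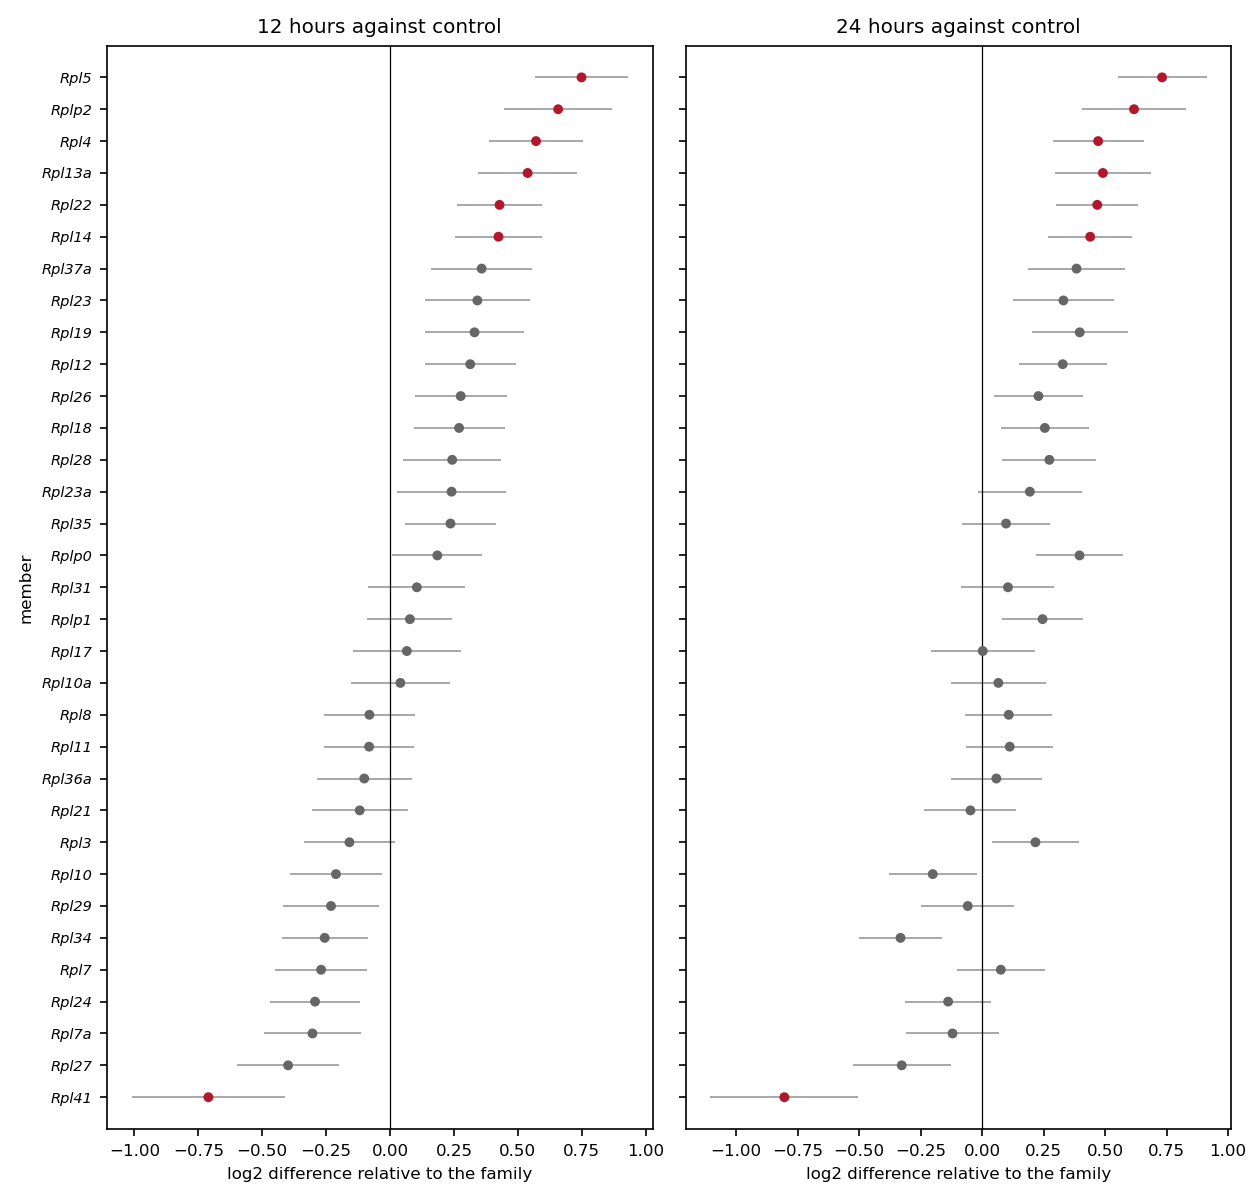
Log2 difference from control relative to the summed family (horizontal axis, 0 = moves with the family) for the 33 members named in the text at 12 hours (left) and 24 hours (right); bars are standard errors and red marks an adjusted p under 0.05. Rpl5 is at the top, at 0.75 and 0.73, and Rpl41 at the bottom, at -0.71 and -0.80.

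Rpl41 carried weight in that reference, since its probe gave 20.4% to 26.9% of the family's counts in control (median 25.4%, n = 7), 12.6% to 18.1% at 12 hours (median 14.7%, n = 6) and 11.7% to 16.4% at 24 hours (median 14.8%, n = 6). The ranges at these times lie wholly below control. The share was 16.8%, 18.3% and 19.8% at 3 hours, also below control, and 22.4% to 25.8% at 72 hours, within it. At 7 days it was 25.3% to 31.7% (median 27.3%, n = 6) and at 30 days 22.7% to 27.5% (median 25.8%, n = 7). With Rpl41 left out of the reference, Rpl5 was still called above the family at both times (0.57 and 0.54, edgeR adjusted p = 0.0093 and 0.016) and Rplp2 at 12 hours (0.48, adjusted p = 0.047). The other 4 were then not called at either time. Rpl41 stood at -0.88 and -0.99 against that reference (adjusted p = 0.017 and 0.012). Rpl41 also missed the threshold with the filter on low values removed (edgeR adjusted p = 0.086 and 0.059), and at 12 hours without the region richest in islet markers (-0.67, adjusted p = 0.065).

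Beside the 21.8% of all tested targets that rose at 12 hours and the same share at 24 hours, counts were as follows for related lists. Of the 31 small-subunit genes, 26 rose at 12 hours and 25 at 24 hours, with medians of 0.82 and 0.78. A further list held other mRNAs that start with the same oligopyrimidine tract, those of translation factors among them. Of the 15 tested, 10 rose at 12 hours and 10 at 24 hours, with medians of 0.54 and 0.45. At 12 hours these included Eef2, the translocase recruited by the stalk (1.36 ± 0.27), Tpt1 (1.26 ± 0.31) and Pabpc1, which binds poly(A) tails (1.08 ± 0.20). Of ribosomal proteins outside the name pattern, 3 of 4 tested rose at both times, and Rpl22l1, the paralogue of Rpl22, rose by 0.37 ± 0.09 at each.

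Few factors that build the ribosome were high enough to test, and their counts stand beside 21.8% of all tested targets that rose at each time and 21% and 20.5% that fell. Of 40 biogenesis genes listed, 33 were in the table and 8 were high enough to test, and at each of the 2 times 3 rose and 1 fell, with medians of 0.10 and 0.01. Those that rose at 12 hours were Ncl (0.83 ± 0.18), Npm1 (0.82 ± 0.23) and Polr1d (0.45 ± 0.12), and Npm1 is also on the oligopyrimidine list above. Of 3 tested genes of subunit maturation and joining, Eif5b fell by 0.22 ± 0.07 at 12 hours, and Eif5b and Nmd3 fell at 24 hours. Of 9 tested genes of mTOR and oligopyrimidine control, Ddit4, an inhibitor of mTOR signalling, rose by 0.88 ± 0.12 and 0.98 ± 0.12, Eif4e rose and Larp4 fell at 12 hours. The mean negative-probe level on the same TMM scale was also lower, at 77.4 in control, 58.4 at 12 hours and 57.7 at 24 hours. Falls in these lists are therefore not read as less RNA. Of 5 tested genes of the p53 axis 4 rose at both times, among them Cdkn1a (1.03 ± 0.16 at 12 hours) and Bax (0.48 ± 0.10). Of the Myc family and its partners 3 were in the table and 0 were high enough to test.

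Markers of the tissue's cell types changed at the same times, some higher and some lower. Their counts stand beside 21.8% of all tested targets that rose at each time, and 21% and 20.5% that fell. Some of the smaller counts are not far from these shares. Of 19 digestive enzyme targets, all tested, 18 fell at 12 hours and 18 at 24 hours, and their summed level was 302620 to 491650 in control, 88237 to 143980 at 12 hours and 23980 to 99970 at 24 hours. Of 12 tested duct and metaplasia markers 9 and 8 rose, and of 14 in the table the summed level went from 1631 to 1829 in control to 10586 to 21241 at 12 hours and 6598 to 12408 at 24 hours. Of 16 tested fibroblast and matrix markers 10 and 13 rose, with sums over 23 of 2083 to 2334, 3210 to 4417 and 4141 to 8355. Of 11 tested macrophage markers 4 and 9 rose, with sums over 18 of 1513 to 1719, 1700 to 2172 and 2021 to 3858. In control tissue 0 of the macrophage, fibroblast, neutrophil and proliferation markers exceeded 2 times the negative value in most regions. Of lymphocyte markers 0 of 6 in the table were high enough to test, and 2 of 3 tested neutrophil markers fell at both times. Of 7 endothelial markers 1 was tested and did not pass the test, and of 5 tested proliferation markers 2 rose at each time and 1 fell at 12 hours. The negative-probe level on the same TMM scale was also lower at these times. It was 77.4 ± 3.32 in control, 58.4 ± 2.46 at 12 hours and 57.7 ± 4.12 at 24 hours (SD over regions). Falls of neutrophil and proliferation markers near that level are therefore not read as less RNA. The islet sum ran from 881 to 29649 at 12 hours against 1087 to 1827 in control, through 1 islet-rich region, and without that region 31 members rose at 12 hours, as with it. Nuclei per region were 942 ± 242 in control, 1512 ± 123 at 12 hours and 1356 ± 289 at 24 hours. The part of these changes in the family's rise was not tested.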

How the data were processed

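The expected counts that the authors deposited are deduplicated barcode counts of 9780 targets in each of 57 regions. Of its targets 3 hold fractional values and were rounded. The number of nuclei per region is a count from the deposited region summary. The labels name mm10 and limma in the submitters' processing notes, with no role given, and how the authors filtered targets is not stated there. Members and gene lists were chosen with earlier results of these data known.

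Regions were grouped by the labels and assigned to 1 of 2 arrays by sample name. Counts were summed per time point and array (20 sums, 1036609 to 9850356 counts each, 1 to 4 regions) and fitted with edgeR 4.0.16 (R 4.3.3) as group plus array with TMM scaling. The 2688 targets that exceeded 2 times the negative probes in 3 or more regions were tested, over 12 comparisons and 1 joint test. Standard errors were derived from each log2 difference and its F statistic. The procedure was tested on simulated data. That simulation gave all targets a common spread and held no array effect, so it does not cover the array differences seen here. Alternatives used limma 3.58.1, DESeq2 1.42.0, other scalings, no filter, background subtraction, single regions, and each sum left out. Genes with full statistics were the 4 with the largest differences per time, the role lists, the 6 with the smallest p relative to the family and up to 3 called genes per other list. Promoter windows are RefSeq's. Counting error and intervals were not computed, and members near the negative probes rest on low counts in single regions. Counts cover all 43 members, but 1 is not reported by name here.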

Additional observations from a re-analysis of the deposited data

Results flagged for a closer look

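Of 81 sets of 4 to 10 regions examined for a single region far from the others (the family share, the Rpl41 share and the levels of 7 members at each time with enough regions), 7 had one by Dixon's criterion, and chance alone gives about 1 in 20. The family share of counts was 1.51% in the only 72-hour region on array 1, above the other 3. Region 4 of 14 days, on array 1, was the highest of its time for Rpl5 (322), Rplp2 (151) and Rpl13a (475). At the low end, the Rpl41 share of the family was 17.1% in region 1 of 48 hours, Rplp2 read 87 in region 6 of 5 days, and Rpl22 read 95.3 in region 2 of 7 days.

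The difference from control was smaller at 72 than at 24 hours for 6 members by the test of the difference itself (edgeR's quasi-likelihood test, Benjamini-Hochberg adjusted). The log2 values were -1.06 for Rpl5, -0.85 for Rplp2, -0.74 for Rpl14, -0.73 for Rpl22, -0.58 for Rpl24 and -0.52 for Rpl8. Between these times 11.4% of all tested targets fell and 7.96% rose. The count of 6 among 43 members is near the share that fell and is not read as particular to the family. The median of the 43 members was 0.21 on array 1 and -0.71 on array 2.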

How the results depend on the processing

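At 12 hours 24 to 42 members rose under every scaling, filter and tool tried with all samples. Apart from the DESeq2 shares given above, the share of all targets called under these alternatives and left-out sums was not counted. The member counts therefore show how calls depend on the setting, not how members compare with other targets. The 3-hour count was 41 with total-count scaling, 6 with 75th-percentile scaling, 13 with negative-probe scaling, 12 with DESeq2, 20 with limma-voom on single regions, and 1 with background subtracted or with no filter. Total-count scaling gave 38 at 48 hours, 38 at 72 hours and 13 from 72 hours to 30 days; it shifts the median of all targets by 0.55 at 12 hours and 0.59 at 24 hours on the log2 scale, against members' medians of 1.42 and 1.30. Background subtraction gave 22 in the joint test, 15 at 24 hours (14 higher), 1 at 72 hours and 3 from 24 to 72 hours (2 lower), where negative-probe scaling gave 10. DESeq2 gave 6 at 72 hours, 1 at 7 days and 7 from 72 hours to 30 days. Limma-voom on single regions gave 5 for 48 hours, 11 for 72 hours and 3 for 7 days against control, 1 for 12 against 3 hours, 12 from 24 to 72 hours, 23 from 72 hours to 30 days and 15 in the joint test relative to the family.

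With the replicate block on single regions, the counts against control were 24 (3 hours), 14 (48 hours), 10 (72 hours), 2 (5 days) and 13 (7 days), with 3 for 12 against 3 hours, 19 from 24 to 72 hours, 16 from 72 hours to 30 days and 38 relative to the family. The labels give no pairing of samples by region number. Of 223 same-numbered pairs 153 correlated over 0.1, and the median correlation was 0.196, against -0.063 for different numbers. Same-numbered regions mostly share an array, and whether array or number lies behind this was not tested. Single-region fits treat regions of 1 tissue piece as separate, and the share of all targets they called was not counted.

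With each sum left out in turn, counts ran from 24 to 35 in the joint test, 0 to 16 for 3 hours against control, 4 to 40 for 12, 3 to 34 for 24 and 0 to 5 for 72 hours, 0 to 11 from 24 to 72 hours, 0 to 7 from 72 hours to 30 days and 4 to 7 relative to the family, and stayed 0 for the other comparisons. A group left with 1 sum is assumed to vary like the rest.

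The family share in control, at 3, 12, 24, 48 and 72 hours and at 5, 7, 14 and 30 days was 1.11%, 1.44%, 1.86%, 1.71%, 1.36%, 1.43%, 1.14%, 1.40%, 1.03% and 1.09% without digestive enzymes and Lrr1 in the total. With background subtracted it was 0.840%, 1.56%, 2.26%, 2.08%, 1.66%, 1.67%, 1.15%, 1.43%, 0.876% and 0.882%. The sign turned for Rpl41 at 12 hours (0.45 by total count, 0.041 by 75th percentile, 0.30 by negative probes, 0.090 with no filter) and 24 hours (0.28 by total count, 0.14 by negative probes), for Rpl10 at 24 hours with background subtracted (-0.076), and for Rpl27 at 12 hours, which ran from -0.037 to 0.44 over the sums left out, lowest without the array 2 sum of 12 hours. Of the other alternatives for single members, 1086 kept direction and call, 257 lost the call and 119 gained it. The cause of these changes was not tested, and members near the negative probes in control have no precise fold there.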
